A study of Homo sapiens with 9 samples.

Results

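The integrated stress response genes described here are ATF4 and 9 genes known as its targets or partners: DDIT3, ATF3, TRIB3, CHAC1, PPP1R15A, ASNS, PSAT1, PHGDH and SESN2. They were chosen by name, as 10 of the 16630 genes in the table of FPKM (fragments per kilobase of transcript, corrected for sequencing depth). All 10 passed the filter of a mean of at least 0.5 FPKM, as did 13273 genes in all. The cells were H1650, an established human line of non-small cell lung cancer, kept in medium with fetal serum and added glutamine. Cells took up 1 of 3 siRNA preparations at 20 nM and were harvested on day 3. Each group has 3 libraries of ribosome-depleted total RNA, which the series describes as biological replicates. The siMENA11a group got a mix of 3 siRNAs directed at ENAH exon 11a, which marks the epithelial isoform of the actin regulator hMENA. The siMENA group got an siGENOME SMARTpool against ENAH, and the control group an ON-TARGETplus non-targeting pool, which is another product line. All 3 groups thus carried siRNA and the lipid reagent, and no untransfected cells were analysed here.

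The integrated stress response starts when 1 of 4 kinases phosphorylates the translation initiation factor eIF2, which lowers protein synthesis overall while the ATF4 message, through its upstream reading frames, is translated more. ATF4 protein then pairs with C/EBP and related factors and switches on genes for amino acid synthesis, transport and charging, redox balance and, when stress lasts, cell death. Much of the control of ATF4 lies in translation, so its RNA level is no measure of its protein. In lung carcinoma cells the pathway is best known for the serine synthesis genes PHGDH and PSAT1 and for asparagine synthesis.

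The sequences below are shown because they are the matches to stress response elements in the promoters of these genes. RefSeq promoter windows (GRCh38.p14, 250 bases before to 50 after each annotated start) were at hand for all 10 genes. The core of the C/EBP-ATF response element, TGATGNAA on either strand, lay in a window of 3 of the 10 genes, against 4.46% of 27305 genes. The cyclic AMP response element TGACGTCA lay in that of 1 gene, against 2.25%, and the ER stress response element (CCAAT and CCACG 9 bases apart) in none, against 0.09%. No gene had matches to more than 1 of these motifs, and a match is a run of letters, not a shown binding site. Capitals mark the match, and each line reads 5′ to 3′ on the strand of its gene.
ASNS: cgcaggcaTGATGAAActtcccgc
ATF3: ggtcaggaTGATGGAAggctgtca
CHAC1: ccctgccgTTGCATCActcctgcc
PPP1R15A: tctcttcgTGACGTCAgcacgccg
The stretch of ASNS lies at chr7:97872461-97872484 on the minus strand, with the match 68 bases before the start. That of ATF3 lies at chr1:212565208-212565231 (plus strand, 191 bases before the start). That of CHAC1 lies at chr15:40953254-40953277 (plus strand, 209 bases before), where the core reads on the opposite strand. That of PPP1R15A lies at chr19:48872355-48872378 (plus strand, 58 bases before). Among these 4 genes, ATF3 and PPP1R15A were called higher in a comparison, as given below, while ASNS and CHAC1 were called in none.

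Before these genes are described, some facts of the whole set of libraries bear on them. ENAH stood at 9.98, 11.0 and 10.3 FPKM in siMENA11a libraries and at 4.43, 5.79 and 5.57 FPKM in siMENA libraries, against 26.1, 30.04 and 26.1 FPKM in control libraries, so ENAH was lower in all 6 siRNA libraries. These are values of the whole gene and do not show which isoform was lowered. The 5 epithelial markers EPCAM, CDH1, KRT8, KRT18 and KRT19 were all above 1 FPKM. Their summed level was 3388 to 3964 FPKM in siMENA11a, 4330 to 4533 FPKM in siMENA and 4323 to 4648 FPKM in control libraries. The markers did not all go the way of the sum. EPCAM averaged 159 FPKM in siMENA11a, 145 FPKM in siMENA and 150 FPKM in control libraries. CDH1, KRT8, KRT18 and KRT19 each had their lowest mean in siMENA11a. Whether the lower sum in siMENA11a has a part in the results below was not tested. None of the 4 fibroblast and 3 endothelial markers with values reached a mean of 1 FPKM, and of 2 leukocyte markers with values CD14 did, at 4.12 FPKM over all libraries. How deeply each library was read is unknown. Judged by the spacing of low values, control replicate 1 was the shallowest, the rest being 1.13 to 1.60 times deeper. Yet control replicate 1 lacked no value in the table, while each other library lacked 411 to 592. Whether this choice of listed genes bears on the depth estimate was not tested.

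The ATF4 message was lower in siMENA cells than in both other groups, and the genes of the response did not move as one. In siMENA cells ATF4 and PHGDH fell against control and none of the 10 rose. PSAT1 also fell there when the replicate number was a block in the fit. In siMENA11a cells DDIT3 and ATF3 rose and PSAT1 and PHGDH fell against control, while ATF4 did not pass the test. Between the siRNA groups, ATF4, DDIT3, ATF3, PPP1R15A and SESN2 were higher in siMENA11a cells, and none of the 10 was lower. TRIB3, CHAC1 and ASNS passed in no comparison. RNA was taken from whole wells, so fewer cells of a kind and less RNA per cell cannot be told apart.

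These calls rest on limma (one fit of log2(FPKM + 1) over the 9 libraries) with Benjamini-Hochberg adjustment over all genes tested and a threshold of 0.05. In siMENA11a against control 4 of 10 passed, 2 higher and 2 lower, where 19.5% of all genes tested passed (8.16% higher and 11.3% lower). In siMENA against control 2 of 10 passed, both lower, where 18.6% passed (10.3% higher and 8.24% lower). With the replicate number as a block 3 of 10 passed there, all lower, and 3149 genes in all, against 2463 without it. In siMENA11a against siMENA 5 of 10 passed, all higher, where 36.6% passed (14.4% higher and 22.2% lower). The median log2 fold change of the 10 genes was 0.07, -0.13 and 0.21 in these 3 comparisons, and that of all genes tested -0.01, 0.04 and -0.05. The first and second comparisons share the control libraries, so their values are not independent. With median-ratio scaling of the libraries the calls of siMENA against control over all genes were 1030 higher and 1335 lower, against 1369 higher and 1094 lower without it, while the calls among the 10 genes stayed at 2 lower.

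Per transcript length, ATF4 was the most abundant of the 10 genes, at 180.1 ± 1.8 FPKM in control cells (SD, n = 3). PSAT1 and PHGDH followed at 65.0 ± 10.0 and 64.2 ± 5.8 FPKM and overlapped, and TRIB3 stood at 28.7 ± 1.5 FPKM. ASNS and PPP1R15A, at 16.7 ± 2.9 and 16.7 ± 1.4 FPKM, and ATF3 and DDIT3, at 10.7 ± 0.3 and 10.1 ± 1.3 FPKM, formed pairs that did not differ beyond their spread. SESN2 (5.86 ± 0.23 FPKM) and CHAC1 (4.07 ± 1.05 FPKM) were the lowest, and their libraries did not overlap.

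**Figure D1:**
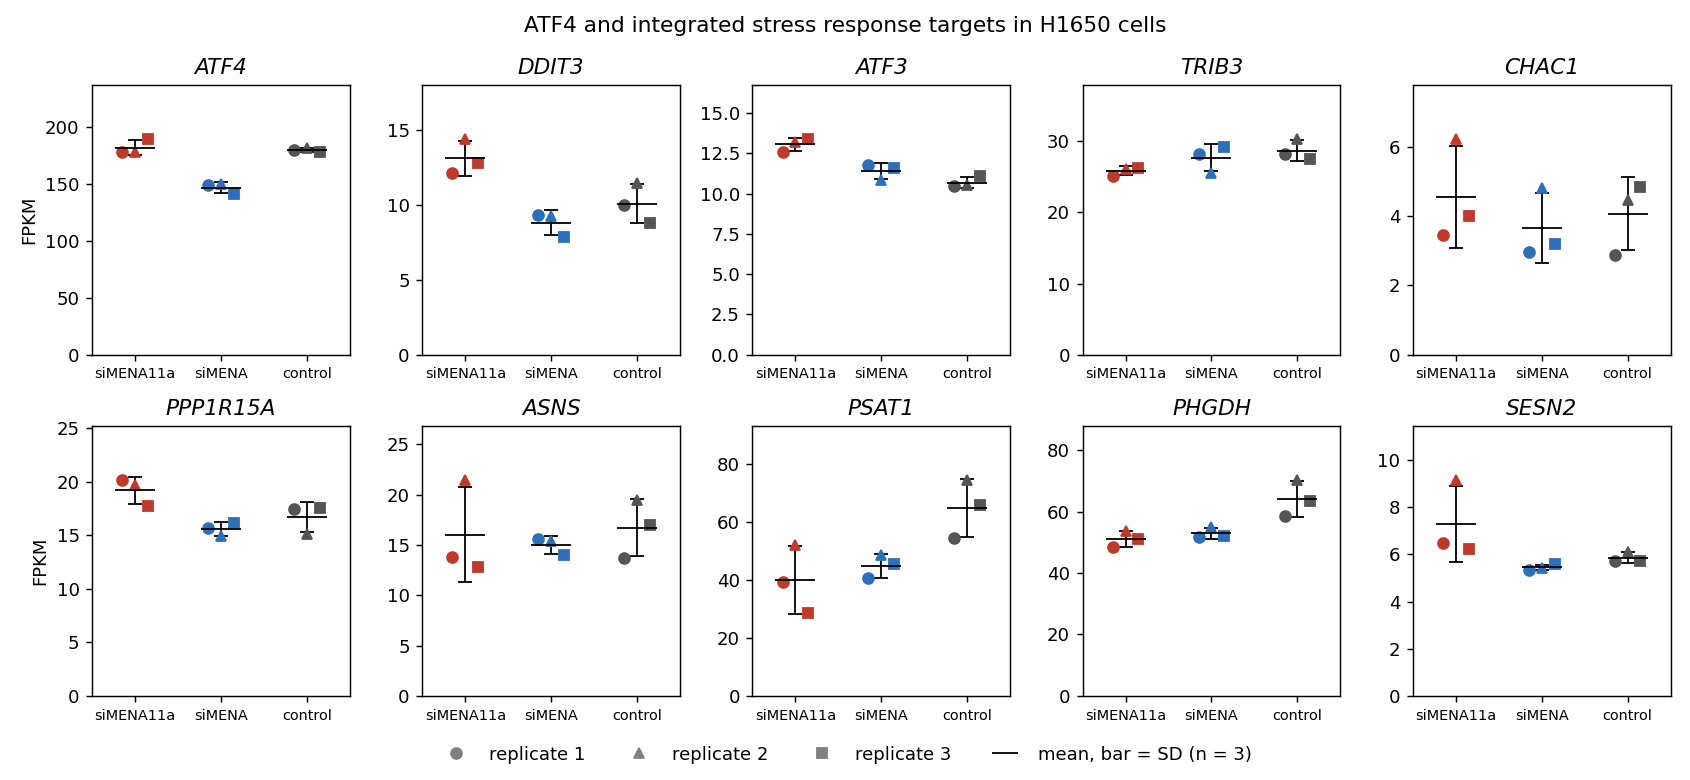
FPKM of ATF4 and 9 stress response genes (vertical axes, from 0) in each library of the siMENA11a, siMENA and control groups; symbols give the replicate number, and the line and bar give the mean and SD of 3 libraries. The 3 siMENA libraries lie below all other libraries for ATF4, and replicate 2 is the highest siMENA11a library for ASNS, PSAT1, SESN2 and CHAC1.

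ATF4, the transcription factor at the centre of the response, measured 178, 178 and 189.8 FPKM in siMENA11a libraries, 149, 150.3 and 141 FPKM in siMENA libraries and 180.2, 182 and 178 FPKM in control libraries. The siMENA libraries lay below all 6 others, while siMENA11a and control libraries overlapped. In siMENA against control the log2 fold change was -0.29 (SE 0.05, adjusted p 0.00463), a mean of 81.6% of control. In siMENA11a against siMENA it was 0.31 (SE 0.05, adjusted p 0.00139). In siMENA11a against control it was 0.02, with a 95% confidence interval of -0.10 to 0.13 (adjusted p 0.87). Of the 9 ATF4 values 7 had lost their decimal point in the deposited table, among them all 3 control values, and were divided by 1000. Without repaired values ATF4 could therefore not be tested against control.

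DDIT3 and ATF3 encode further bZIP transcription factors of the response. DDIT3, also known as CHOP and linked to cell death in lasting ER stress, measured 12.2, 14.4 and 12.9 FPKM in siMENA11a libraries, 9.37, 9.26 and 7.85 FPKM in siMENA libraries and 9.99, 11.5 and 8.84 FPKM in control libraries. Every siMENA11a library was above every other library. DDIT3 was higher in siMENA11a than in siMENA cells by a log2 fold change of 0.53 (SE 0.10, adjusted p 0.00309) and than in control cells by 0.35 (SE 0.10, adjusted p 0.0356). The call against control ended without siMENA11a replicate 2 or 3 or control replicate 1 or 3 (adjusted p 0.0679 to 0.125, over all alternatives 0.00905 to 0.125), and with only the 2 groups in the fit (0.0522). In siMENA against control DDIT3 had a log2 fold change of -0.17 (95% confidence interval -0.40 to 0.05).

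ATF3, an early stress factor that can repress other targets of the response, measured 12.6, 13.2 and 13.4 FPKM in siMENA11a libraries, 11.8, 10.8 and 11.6 FPKM in siMENA libraries and 10.5, 10.5 and 11.1 FPKM in control libraries. The siMENA11a libraries were again above all others, with siMENA and control libraries overlapping. ATF3 rose in siMENA11a against control by a log2 fold change of 0.27 (SE 0.06, adjusted p 0.0105), which held without any 1 library. The difference from siMENA was smaller, 0.18 (SE 0.06, adjusted p 0.0316). That call ended without siMENA11a replicate 2 or 3 or siMENA replicate 2 or 3 (limma adjusted p 0.0528 to 0.116, over all alternatives 0.0144 to 0.116), and with only the 2 groups in the fit (0.0616).

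PPP1R15A and TRIB3 act as brakes. PPP1R15A, or GADD34, brings protein phosphatase 1 to eIF2 and so ends the response. It measured 20.1, 19.7 and 17.8 FPKM in siMENA11a libraries, 15.7, 14.9 and 16.1 FPKM in siMENA libraries and 17.4, 15.1 and 17.6 FPKM in control libraries, with the siMENA11a libraries above all others. PPP1R15A was higher in siMENA11a than in siMENA cells by a log2 fold change of 0.28 (SE 0.07, adjusted p 0.013), and the adjusted p was 0.0509 without siMENA11a replicate 1 (over all alternatives 0.00801 to 0.0509). Against control it had a log2 fold change of 0.19 (95% confidence interval 0.03 to 0.35, adjusted p 0.095) in siMENA11a and of -0.09 (-0.26 to 0.07) in siMENA. TRIB3, a pseudokinase that DDIT3 and ATF4 induce and that restrains them, measured 25.2, 26.1 and 26.3 FPKM in siMENA11a libraries, 28.3, 25.5 and 29.2 FPKM in siMENA libraries and 28.2, 30.4 and 27.5 FPKM in control libraries. Its siMENA11a libraries were below the control libraries, but the log2 fold change of -0.14 did not pass (95% confidence interval -0.28 to -0.01, adjusted p 0.136).

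PHGDH and PSAT1, the enzymes of the first and second steps of serine synthesis from glycolysis, were the genes of the set whose siMENA11a and siMENA libraries all lay below the control libraries. PHGDH measured 48.4, 53.7 and 51.1 FPKM in siMENA11a libraries, 51.7, 54.98 and 52.0 FPKM in siMENA libraries and 58.7, 70.3 and 63.5 FPKM in control libraries. All control libraries were above all 6 siRNA libraries. PHGDH fell against control in both, with log2 fold changes of -0.32 in siMENA11a (SE 0.07, adjusted p 0.0118) and -0.27 in siMENA (SE 0.07, adjusted p 0.0247). The siMENA call ended without siMENA replicate 1 or 3 or control replicate 2 or 3 (adjusted p 0.0658 to 0.0857, over all alternatives 0.00636 to 0.0857). Between the siRNA groups the log2 fold change of PHGDH was -0.05 (95% confidence interval -0.21 to 0.10).

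PSAT1 measured 39.2, 52.0 and 28.5 FPKM in siMENA11a libraries, 40.6, 48.5 and 45.4 FPKM in siMENA libraries and 54.6, 74.5 and 65.8 FPKM in control libraries. The control libraries were again above all siRNA libraries, and the siMENA11a libraries were widely spread. PSAT1 fell in siMENA11a against control, with a log2 fold change of -0.72 (SE 0.19, adjusted p 0.0235), a mean of 61.4% of control. The call ended without siMENA11a replicate 1 or control replicate 2 or 3 (adjusted p 0.0596 to 0.0773, over all alternatives 0.00479 to 0.0773) and without repaired values (0.0662). In siMENA against control PSAT1 had a log2 fold change of -0.52 (95% confidence interval -0.93 to -0.10, adjusted p 0.0796), which passed when the replicate number was a block (0.0268), with only the 2 groups in the fit (0.017) and without siMENA11a replicate 2 (0.0261) or 3 (0.0256).

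ASNS, which makes asparagine and is a classic gene of amino acid shortage, measured 13.8, 21.5 and 12.8 FPKM in siMENA11a libraries, 15.6, 15.4 and 14.01 FPKM in siMENA libraries and 13.8, 19.4 and 17.0 FPKM in control libraries. All 3 groups overlapped, and the fold changes had wide intervals (-0.46 to 0.30 for siMENA11a and -0.52 to 0.25 for siMENA against control, 95% on the log2 scale). CHAC1, an enzyme that breaks down glutathione, measured 3.46, 6.24 and 4.0 FPKM in siMENA11a libraries, 2.98, 4.82 and 3.19 FPKM in siMENA libraries and 2.87, 4.48 and 4.86 FPKM in control libraries. It too overlapped in all groups, with log2 intervals of -0.36 to 0.61 for siMENA11a and -0.60 to 0.36 for siMENA against control. Changes within these intervals could thus not be excluded for either gene with 3 libraries per group.

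SESN2, a sestrin that senses leucine and restrains the growth kinase complex mTORC1, measured 6.49, 9.15 and 6.23 FPKM in siMENA11a libraries, 5.36, 5.42 and 5.57 FPKM in siMENA libraries and 5.72, 6.12 and 5.73 FPKM in control libraries. The groups did not overlap, but siMENA11a replicate 2 stood well above the other siMENA11a libraries. SESN2 was higher in siMENA11a than in siMENA cells by a log2 fold change of 0.34 (SE 0.11, adjusted p 0.0393). It was 0.19 (adjusted p 0.056) without siMENA11a replicate 2, and the call also ended without any siMENA replicate, without control replicate 1 or 3, without the filter on low values and with only the 2 groups in the fit (adjusted p 0.0525 to 0.0987; over all alternatives 0.0168 to 0.0987). Against control SESN2 had a log2 fold change of 0.26 (adjusted p 0.146) in siMENA11a and -0.09 (adjusted p 0.639) in siMENA.

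**Figure D2:**
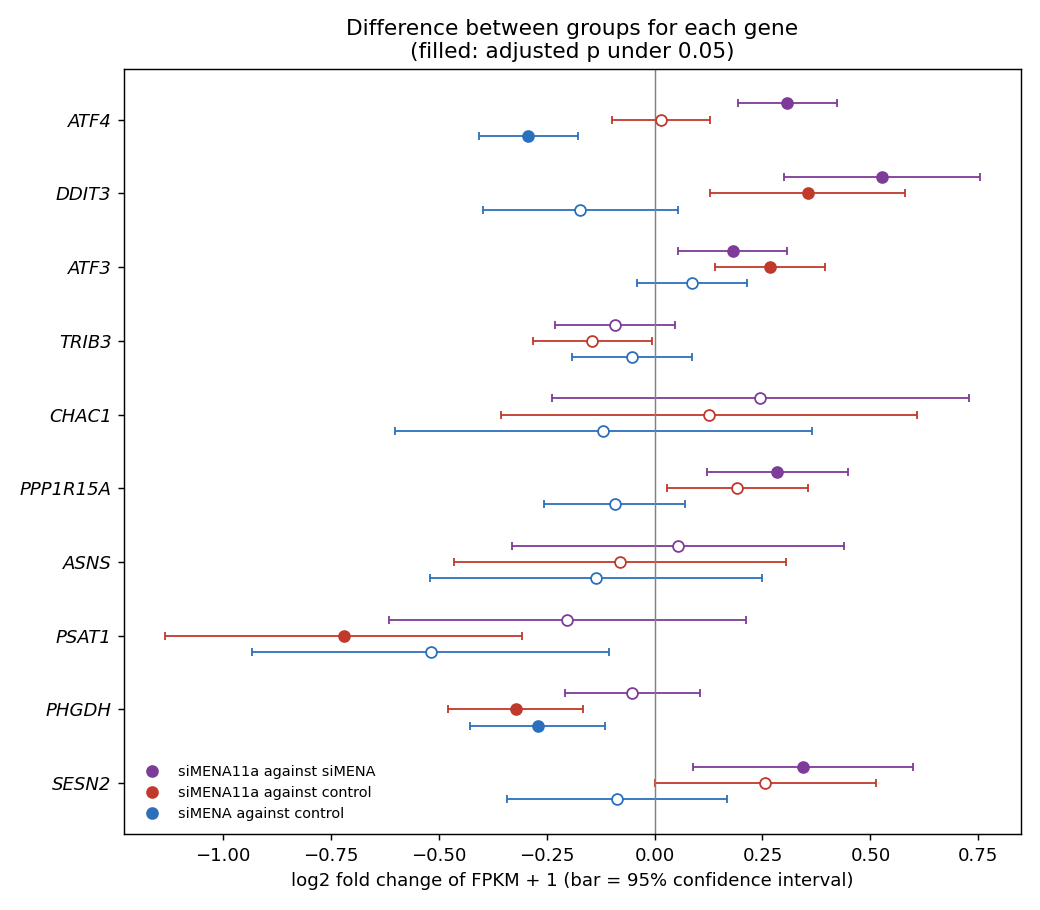
Log2 fold change of FPKM + 1 (horizontal axis) with its 95% confidence interval for each gene (vertical axis) in siMENA11a against siMENA, siMENA11a against control and siMENA against control; filled points have an adjusted p under 0.05. For ATF4, DDIT3, ATF3, PPP1R15A and SESN2 the siMENA11a against siMENA interval lies above 0, while PHGDH and PSAT1 lie below 0 in both comparisons with control.

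The rest of the pathway was read from 9 lists of genes ordered by role. Their counts stand against shares over all genes tested of 8.16% higher and 11.3% lower in siMENA11a against control and 10.3% higher and 8.24% lower in siMENA against control, and a count near these shares is not a result about its list. Among the genes named from the lists, MTHFD2, GLUL, ASS1, SLC38A1, SLC38A2, KARS, CALR and HSP90B1 had 5 to 9 repaired values and could not be tested without them. Among 20 genes of the eIF2 kinases, eIF2, its exchange factor eIF2B and its phosphatase, 1 rose and 1 fell in siMENA11a and 4 rose and 1 fell in siMENA against control. EIF2AK2, or PKR, the kinase that double-stranded RNA activates, measured 23.1, 25.1 and 24.8 FPKM in siMENA11a libraries, 21.4, 21.4 and 21.1 FPKM in siMENA libraries and 18.3, 17.9 and 18.9 FPKM in control libraries. The 3 groups did not overlap, and EIF2AK2 rose by a log2 fold change of 0.39 (siMENA11a, SE 0.05, adjusted p 0.00112) and of 0.20 (siMENA, SE 0.05, adjusted p 0.0219) against control. The siMENA call ended without siMENA replicate 1 or 2 or control replicate 1 or 2 (adjusted p 0.0643 to 0.0718, over all alternatives 0.0191 to 0.0718). Without 1 library at a time 1 to 3 genes of the list were called in siMENA11a (1 without control replicate 2 or 3) and 2 to 5 in siMENA (2 without siMENA replicate 2, 3 without siMENA replicate 1 or control replicate 1 or 2). With repaired values left out 1 was called in siMENA11a and 3 in siMENA.

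The kinase that uncharged tRNA activates, EIF2AK4 or GCN2, and its activator GCN1L1 (GCN1) rose in siMENA against control, with log2 fold changes of 0.32 for EIF2AK4 (adjusted p 0.00755) and 0.42 for GCN1L1 (adjusted p 0.0105). EIF2AK4 measured 11.6, 11.5 and 10.7 FPKM in siMENA11a libraries, 14.1, 13.8 and 13.7 FPKM in siMENA libraries and 10.05, 11.5 and 11.1 FPKM in control libraries. Both genes were lower in siMENA11a than in siMENA cells, with log2 fold changes of -0.28 for EIF2AK4 (adjusted p 0.0067) and -0.37 for GCN1L1 (adjusted p 0.0102). EIF2AK3, or PERK, the kinase of ER stress, did not pass, at 12.6, 12.1 and 12.8 FPKM in siMENA11a libraries, 12.9, 14.3 and 14.7 FPKM in siMENA libraries and 13.2, 13.9 and 13.2 FPKM in control libraries.

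Of 15 tested partner and related transcription factors, 4 rose and 2 fell in siMENA11a and 1 rose and 2 fell in siMENA against control (5 called with the replicate number as a block, with only the 2 groups in the fit or without siMENA11a replicate 3). JUN, a subunit of the AP-1 factor, rose in both, by log2 fold changes of 0.36 (adjusted p 0.00545) in siMENA11a and 0.49 (adjusted p 0.00126) in siMENA. BACH1, a repressor of antioxidant genes, went to opposite sides, with 32.7, 32.3 and 33.6 FPKM in siMENA11a libraries, 19.3, 19.4 and 19.4 FPKM in siMENA libraries and 25.8, 21.9 and 24.1 FPKM in control libraries. Its log2 fold changes were 0.44 in siMENA11a (adjusted p 0.00129) and -0.29 in siMENA (adjusted p 0.0105) against control and 0.73 between the siRNA groups (adjusted p 3.27e-05). ATF2 and JDP2, bZIP factors that can pair with members of the family, fell in siMENA11a against control with log2 fold changes of -0.53 for ATF2 (adjusted p 0.00108) and -0.43 for JDP2 (adjusted p 0.00115). CEBPG, a dimer partner of ATF4, had a log2 fold change of -0.30 in siMENA against control (adjusted p 0.0183), and its call ended without siMENA replicate 2 or 3 or control replicate 2 (adjusted p 0.0522 to 0.0604, over all alternatives 0.00763 to 0.0604).

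Of 7 other tested genes of serine, glycine and one-carbon metabolism, 1 was called in each comparison with control, where 19.5% (siMENA11a) and 18.6% (siMENA) of all genes tested were. In both it was MTHFD2, the mitochondrial folate enzyme, whose 9 values were all repaired, and none of the list was called with repaired values left out. It measured 154.5, 166 and 165 FPKM in siMENA11a libraries, 169, 171 and 159 FPKM in siMENA libraries and 185, 207 and 189 FPKM in control libraries, and all control libraries were above all siRNA libraries. Its log2 fold changes against control were -0.26 in siMENA11a (adjusted p 0.0174) and -0.22 in siMENA (adjusted p 0.0352). The siMENA11a call ended without siMENA11a replicate 1 (0.0667) or control replicate 2 (0.0615). The siMENA call ended without any siMENA replicate or control replicate 2 or 3 (adjusted p 0.0674 to 0.111). PSPH, the enzyme of the last step of serine synthesis, had log2 fold changes of -0.24 in siMENA11a and 0.01 in siMENA against control and did not pass in either. It was lower in siMENA11a than in siMENA cells, at -0.25 (limma adjusted p 0.0488). That call ended without any siMENA replicate, with median-ratio or quantile scaling, without repaired values and in further alternatives (adjusted p 0.0511 to 0.168). Without siMENA11a replicate 2, 3 genes of the list were called in siMENA11a against control.

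Among 13 enzymes of proline, cysteine, glutamate and branched-chain amino acids, 3 rose and 4 fell in siMENA11a and 1 rose and 3 fell in siMENA against control. Without 1 library at a time 3 to 6 were called in siMENA11a (3 without siMENA11a replicate 1 or control replicate 3, 4 without control replicate 1) and 1 to 5 in siMENA (1 without siMENA replicate 1, 2 without control replicate 2). In siMENA 1 was called with repaired values left out. CBS, an enzyme of cysteine synthesis, fell in siMENA11a against control, to a log2 fold change of -0.55 (adjusted p 0.00118). CBS stood at 17.8, 20.1 and 17.0 FPKM in siMENA11a libraries, 25.8, 26.8 and 25.6 FPKM in siMENA libraries and 26.0, 29.8 and 26.0 FPKM in control libraries. GLUL, glutamine synthetase, fell in siMENA against control, to a log2 fold change of -0.61 (adjusted p 0.00148). In siMENA11a against control GLUL fell as well, to -0.35 (limma adjusted p 0.0188). That siMENA11a call ended without control replicate 1 (0.0632) or 3 (0.0658). ASS1, argininosuccinate synthase of arginine synthesis, was at 136, 123 and 150.4 FPKM in siMENA11a libraries, 72.0, 83.7 and 84.7 FPKM in siMENA libraries and 120.1, 105 and 99.9 FPKM in control libraries. ASS1 was higher in siMENA11a than in siMENA cells at a log2 fold change of 0.76 (limma adjusted p 0.000282). PYCR1, of proline synthesis, was lower in siMENA11a than in siMENA cells (log2 fold change -0.51, adjusted p 0.000961).

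Of 11 tested amino acid transporters, 1 rose and 1 fell in siMENA11a and 1 fell in siMENA against control (1 in siMENA11a and 0 in siMENA with repaired values left out). SLC7A11, the cystine importer, which stress factors other than ATF4 also control, measured 14.6, 28.5 and 16.9 FPKM in siMENA11a libraries, 7.08, 6.75 and 6.39 FPKM in siMENA libraries and 7.18, 10.3 and 8.60 FPKM in control libraries. Every siMENA11a library was above every other library, and replicate 2 was the highest. The log2 fold change was 1.07 in siMENA11a against control (SE 0.20, adjusted p 0.00639) and 1.38 against siMENA (SE 0.20, adjusted p 0.000701). The glutamine transporter SLC38A1 fell in siMENA11a against control (log2 fold change -0.64, adjusted p 0.000485). SLC38A2, its close relative, was the 1 called in siMENA against control, at -0.19 (adjusted p 0.0449). That call ended without siMENA replicate 1 or 2, any control replicate or siMENA11a replicate 1, with quantile normalization and without the variance trend (adjusted p 0.0581 to 0.163).

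The cytosolic aminoacyl-tRNA synthetases load amino acids onto tRNA. With the tRNA exporter XPOT, 20 genes were tested, of which 1 rose and 7 fell in siMENA11a and 4 rose and 1 fell in siMENA against control. Without 1 library at a time 3 to 9 were called in siMENA11a (3 without siMENA11a replicate 1 or control replicate 2 or 3, 5 without control replicate 1) and 1 to 6 in siMENA (1 without siMENA replicate 2 or control replicate 3, 2 without siMENA replicate 1 or control replicate 1). In siMENA 3 were called with median-ratio scaling or without the variance trend, and in siMENA11a 5 with only the 2 groups in the fit. Between the siRNA groups 1 was higher, 10 were lower and 9 did not pass in siMENA11a, where 14.4% of all genes tested were higher and 22.2% lower, with a median log2 fold change of -0.26, against -0.05 over all genes tested, and 10 to 13 were called there without 1 library at a time. With repaired values left out 7 were called between the siRNA groups, 4 in siMENA11a and 3 in siMENA against control. LARS, for leucine, measured 29.4, 30.3 and 29.99 FPKM in siMENA11a libraries, 50.8, 47.8 and 46.1 FPKM in siMENA libraries and 36.9, 36.9 and 37.9 FPKM in control libraries. None of the 3 groups overlapped, with log2 fold changes of -0.31 in siMENA11a (adjusted p 0.00295) and 0.36 in siMENA (adjusted p 0.00133) against control. KARS, for lysine, fell in siMENA11a against control (log2 fold change -0.33, adjusted p 0.00515) and was lower in siMENA11a than in siMENA cells (-0.58, adjusted p 9.06e-05). DARS, for aspartate, was the exception and was higher in siMENA11a than in siMENA cells at a log2 fold change of 0.47 (limma adjusted p 0.000356).

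Among 16 tested targets linked to growth arrest, secretion and death, 1 rose and 1 fell in siMENA11a and 2 rose and 3 fell in siMENA against control (8 called in siMENA with the replicate number as a block). The siMENA count was 3 without siMENA replicate 1 or 2 or control replicate 1 or 3, and the siMENA11a count was 1 without siMENA11a replicate 2 or 3, any siMENA replicate or control replicate 2 or 3. ERO1L, an oxidase of protein folding in the endoplasmic reticulum that DDIT3 can induce, measured 93.8, 89.7 and 97.8 FPKM in siMENA11a libraries, 63.3, 62.2 and 66.7 FPKM in siMENA libraries and 78.4, 80.1 and 79.9 FPKM in control libraries. The 3 groups were apart, and ERO1L was higher in siMENA11a than in siMENA cells at a log2 fold change of 0.54 (limma adjusted p 5.63e-05). VEGFA, an angiogenic factor, fell in siMENA against control (log2 fold change -0.46, adjusted p 0.0109), while BBC3, or PUMA, a death factor of the BCL2 family, rose (0.33, adjusted p 0.0056). Of 10 tested genes of the sestrin and GATOR branch 1 rose and 1 fell in siMENA11a and 2 rose in siMENA against control. The siMENA calls were 0 without siMENA replicate 1 or 2, any control replicate or the repaired values. GATSL3, also named CASTOR1 and an arginine sensor upstream of mTORC1, was the one lower in siMENA11a than in control cells (log2 fold change -1.41, adjusted p 0.000648). It measured 2.92, 2.02 and 3.85 FPKM in siMENA11a libraries, 11.5, 8.42 and 9.58 FPKM in siMENA libraries and 10.5, 9.41 and 8.04 FPKM in control libraries.

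Of 12 genes of the ATF6 and XBP1 arm, which raises the folding capacity of the endoplasmic reticulum, 1 rose and 7 fell in siMENA11a against control, where 8.16% of all genes tested rose and 11.3% fell. The median log2 fold change was -0.32, against -0.01 over all genes tested, and 8 were called without each library in turn. XBP1, a transcription factor of that arm, rose (log2 fold change 0.33, adjusted p 0.00909), while the chaperone CALR fell (-0.63, adjusted p 0.000319). HSP90B1, whose 9 values were all repaired, fell in siMENA11a too, at -0.46 (limma adjusted p 0.00116). It was the 1 called in siMENA, at -0.39 (adjusted p 0.00286). With repaired values left out none was called, while 2 were called with median-ratio or quantile scaling or without siMENA11a replicate 2, and 3 with the replicate number as a block. In the same siMENA11a libraries DDIT3 and ATF3 rose, as given above.

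**Figure D3:**
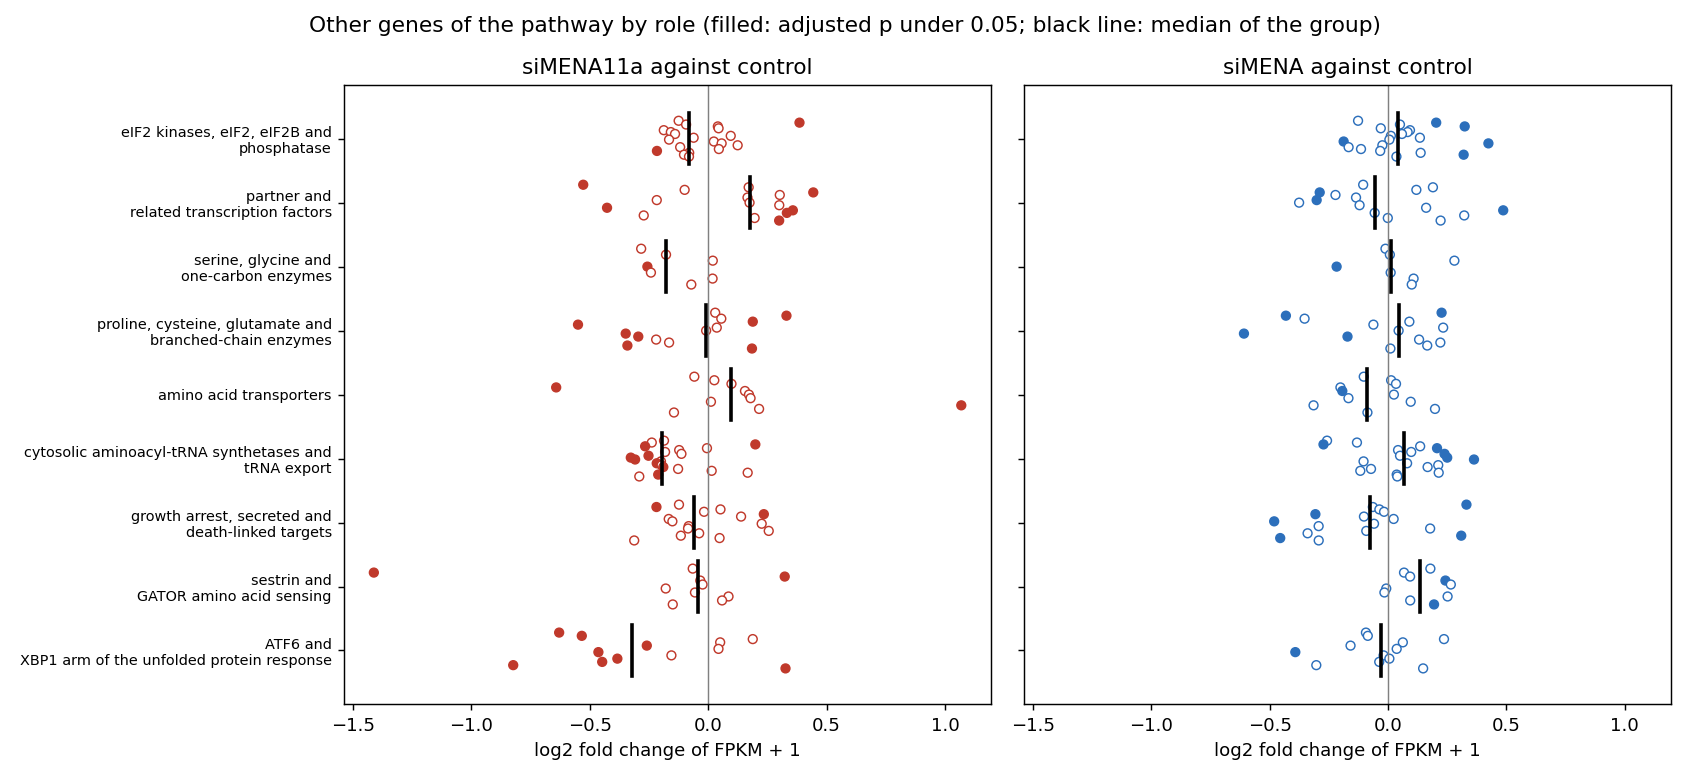
Log2 fold change of FPKM + 1 (horizontal axes) of each tested gene of 9 lists (vertical axis) in siMENA11a against control and in siMENA against control, which share the control libraries; filled points have an adjusted p under 0.05 and black lines are medians. The synthetase list has a median of -0.19 in siMENA11a and 0.07 in siMENA, and SLC7A11 (1.07) and GATSL3 (-1.41) are the outermost points in siMENA11a.

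The amino acid genes of the response also differed between libraries of the same group, with replicate 2 often the highest; this was looked for after the values were seen. Among all genes tested, replicate 2 was the highest library in all 3 groups for 13.5% of genes, replicate 1 for 3.53% and replicate 3 for 3.68%. Of the 7 serine, glycine and one-carbon enzymes 5 had replicate 2 highest in all 3 groups (PSPH, SHMT1, SHMT2, MTHFD1 and MTHFD2), and of the 20 genes of the synthetase list 9 did. Among the 10 genes of the response PSAT1 and PHGDH did. Above their group mean lay 9 of the 10 in siMENA11a replicate 2, 6 of the 10 in siMENA replicate 2 and 8 of the 10 in control replicate 2. In siMENA replicate 1 it was likewise 6 of the 10, so replicate 2 did not stand out by this count in siMENA. Over all 13273 genes tested 6799, 6701 and 7473 lay above in replicate 2 of siMENA11a, siMENA and control. Of 20 genes of the eIF2 list none had replicate 2 highest throughout. What set replicate 2 apart was not tested, and the labels name no batch.

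BCAT1, which starts the breakdown of branched-chain amino acids, showed the same. It stood at 3.21 FPKM in siMENA11a replicate 2 against 0.80 and 0.68 FPKM in the other siMENA11a libraries, at 1.69 FPKM in siMENA replicate 2 against 0.43 and 0.42 FPKM, and at 2.98 FPKM in control replicate 2 against 0.61 and 0.77 FPKM. BCAT1 and 7 synthetases hold the C/EBP-ATF core in their promoter windows. Of the 7 synthetases with the core 6 had replicate 2 highest in all groups, and of the 10 genes of that list with a window but no core 2 did. Over all tested genes with a window it was 50 of 253 with the core and 1262 of 8985 without it. The other lists went both ways. Among transporters with a window it was 3 of 5 with the core and 0 of 5 without it. Among serine, glycine and one-carbon enzymes it was 0 of 1 with the core and 3 of 3 without it. Among partner and related transcription factors it was 0 of 2 with the core and 2 of 11 without it. For the proline, cysteine, glutamate and branched-chain enzymes, BCAT1 among them, it was 1 of 2 with the core and 2 of 6 without it. In the ATF6 and XBP1 arm it was 1 of 1 and 1 of 11, and in the eIF2 list 0 of 1 and 0 of 16. None of the 3 genes of the response with the core had replicate 2 highest in all groups. The stretches of BCAT1, AARS1 (AARS in the table) and GARS1 (GARS) are shown as examples of this overlap, with the same marking as above.
BCAT1: cttcctgcTGATGCAAtccgctag
AARS1: tctcgcagTTGCATCAgccaagtt
GARS1: cgcggcgaTTTCATCAtgctccga
They lie at chr12:24949134-24949157 (minus strand), chr16:70289678-70289701 (minus strand) and chr7:30594837-30594860 (plus strand) of GRCh38.p14.

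**Figure D4:**
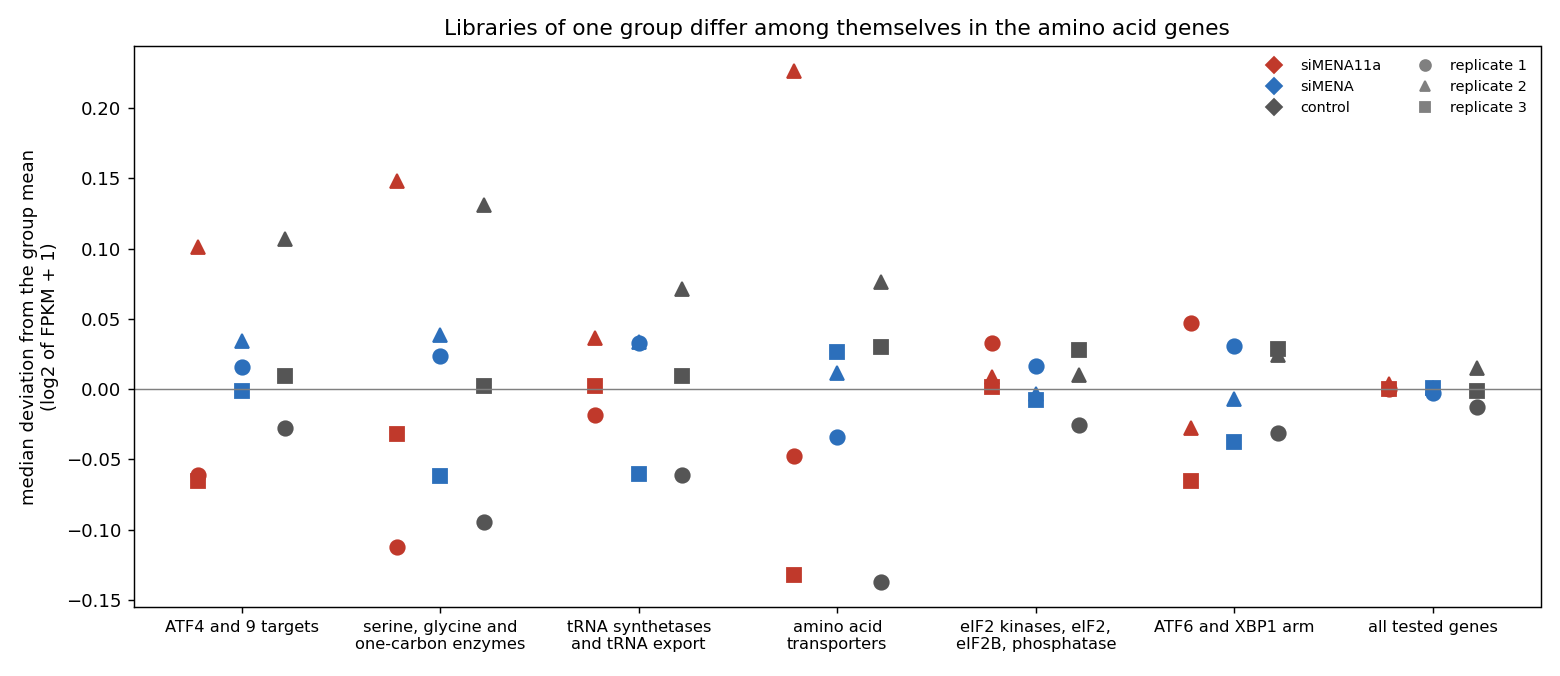
Median deviation of the genes of each list from their own group mean (vertical axis, log2 of FPKM + 1) by list (horizontal axis), with 1 point per library, coloured by group and shaped by replicate number. For ATF4 and 9 targets replicate 2 lies at 0.10 in siMENA11a, 0.03 in siMENA and 0.11 in control. For the serine, glycine and one-carbon enzymes it lies at 0.15, 0.04 and 0.13. Over all genes tested the libraries lie between -0.013 (control replicate 1) and 0.0148 (control replicate 2).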

How the data were processed

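The members and gene lists were chosen with earlier results of these data known. Per the labels' protocols, total RNA (Qiazol, RNeasy) was freed of ribosomal RNA before strand-specific libraries were prepared and sequenced in 75-base pairs. Expression was deposited as FPKM, and the submitters' processing notes name hg19. Not given in the sources used here are the aligner, the counting program and the gene models. A decimal point was missing from 11524 values (7.91%). They were whole numbers at least 198-fold above the other values of their gene or in genes without any decimal value, and were divided by 1000. Left out were 1286 genes that lacked a value.

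Values were taken as log2(FPKM + 1), which understates changes of low genes, and genes averaging under 0.5 FPKM were dropped. One limma 3.58.1 fit in R 4.3.3 with group as the only term and a mean-variance trend gave moderated tests with Benjamini-Hochberg adjustment over 13273 genes; the script was tested on simulated data. The series calls the libraries biological replicates without naming cultures, so p-values measure the spread between these libraries. Alternatives were another pseudocount (0.1), other filters (none, 2 FPKM), median-ratio and quantile scaling, a replicate block, only the 2 groups compared, repaired values left out, no trend and each library left out. Genes named are the 10 members, ENAH and called genes of the lists. From each list and comparison these are up to 4 that average 1 FPKM or more and change most. Several of these are counted but not named above. Some lost their call without 1 library, but others held it. Among those that held it were SDF2L1 and CRELD2 in siMENA11a against control (log2 fold changes -0.82 and -0.53). EIF2AK3, XBP1 and BCAT1 were added after their values were seen.

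The groups carry the same replicate numbers. Deviations from the group means correlated, across genes, at 0.124, 0.378 and 0.196 between siMENA and control libraries of the same number, all over 0.1, so these were taken as paired. Between siMENA and control libraries of different number the values ran from -0.2425 to 0.04, except 0.1125 for siMENA replicate 3 with control replicate 1. That value is also over 0.1, so the cut alone does not single out same-numbered libraries. In siMENA against control the blocked value stands beside a result where it changes the call. For the other comparisons, whose numbers were not taken as pairs, blocked values stand in the closing section. All groups share the same numbering, so treating the comparisons unlike rests on this cut alone.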

Additional observations from a re-analysis of the deposited data

How the results depend on the processing

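No gene named in the lists or among the 10 reversed its direction with a call on either side, over 18 alternatives and 3153 values, of which 2941 kept their side of the threshold, 187 lost a call and 25 gained one. ATF4 kept its calls in siMENA against control and in siMENA11a against siMENA under all 17 alternatives that could test it. The number of the 10 genes called changed to 1 in siMENA against control with repaired values left out, which removes ATF4 from the test, and to 3 in siMENA11a against siMENA with only the 2 groups in the fit. Without 1 library at a time it ranged from 1 to 3 in siMENA against control, 2 to 4 in siMENA11a against control and 3 to 5 in siMENA11a against siMENA, and the number of all genes called from 1346 to 2902, from 1493 to 2483 and from 3626 to 4814. The lowest counts came without siMENA replicate 1, control replicate 3 and siMENA replicate 1. In siMENA against control it was also 1446 without control replicate 3, 1572 if siMENA replicate 2 was left out and 1555 if control replicate 1 was.

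With the replicate number as a block 3149, 3431 and 5648 genes were called, in the order just given, and 3, 4 and 5 of the 10 genes. In siMENA against control the block also gave calls to JDP2 (0.16, adjusted p 0.0488) and QARS (0.21, adjusted p 0.0194) and changed no other call among the genes named by the rule. In siMENA11a against control it gave calls to EIF2B2 (-0.19, adjusted p 0.0406), CEBPG (-0.22, 0.0255), PSPH (-0.24, 0.0263) and QARS (-0.20, 0.0242), and between the siRNA groups to GADD45B (0.33, 0.0327). In those comparisons it also moved the growth arrest, secretion and death list to 5 and 10 genes called, against 2 and 6 without it, and the serine, glycine and one-carbon list to 2 and 2, against 1 and 1. Same-numbered siMENA11a libraries correlated at 0.206, 0.425 and -0.0302 with control and at 0.0863, 0.309 and 0.0203 with siMENA, so those numbers were not taken as pairs. Of different number, siMENA11a replicate 3 reached 0.321 with control replicate 1 and 0.205 with siMENA replicate 1. Total depth is unknown, which leaves the counting error of low genes such as CHAC1 and SESN2 unmeasured.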

Other observations

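The genes whose pattern over the 9 libraries was most like that of ATF4, by the smallest root-mean-square difference of centred log2(FPKM + 1) among 11936 genes, were ZRANB1 (0.0269), RAD1 (0.0365), KCNN4 (0.0386), C19orf42 (0.0395) and RPE (0.0417). ZRANB1 measured 16.7, 16.2 and 17.9 FPKM in siMENA11a libraries, 13.9, 13.9 and 13.3 FPKM in siMENA libraries and 16.3, 16.7 and 17.1 FPKM in control libraries. All 5 were lower in the siMENA libraries than in every other library. As they were chosen for being like ATF4 over these libraries, this follows from the choice and is no separate result.

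An earlier analysis of these comparisons picked 7-base words from the 3' UTRs of the genes that fell most, CAGAATA or AGAATAA for siMENA and CCAAGGA or CAAGGAA for siMENA11a. In GENCODE 29, 28.5% and 26.0% of tested genes with a 3' UTR carry these. ATF4, DDIT3, PPP1R15A, ASNS, PSAT1 and PHGDH carry neither pair. ATF3 carries the siMENA words, and TRIB3, CHAC1 and SESN2 carry a siMENA11a word; none of these 4 was called lower in the comparison of its words.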
